A study of Mus musculus with 2 samples.

Results

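Hes1 and 8 other genes of the Notch pathway were described across the stromal cells of the mouse lung on 2 diets. The 9 genes, of 21014 in the deposited tables, were the receptors Notch1, Notch2 and Notch3, the ligand Jag1, the effectors Hes1, Hey1, Hey2 and Heyl, and the feedback regulator Nrarp. They were picked by pathway role with the HFD over NC levels of these libraries already known, Hes1 being one of the genes that stood highest in HFD. All 9 were found by symbol in both tables. Their Ensembl identifiers in the tables are ENSMUSG00000022528 (Hes1), ENSMUSG00000040289 (Hey1), ENSMUSG00000019789 (Hey2), ENSMUSG00000032744 (Heyl), ENSMUSG00000026923 (Notch1), ENSMUSG00000027878 (Notch2), ENSMUSG00000038146 (Notch3), ENSMUSG00000027276 (Jag1) and ENSMUSG00000078202 (Nrarp). The high fat diet group (HFD) was 1 library, from the fibroblastic stroma of lungs of C57Bl/6J mice that had eaten this diet for 16 weeks. The normal chow group (NC) was 1 library of the same strain and tissue after 16 weeks on chow. The number of mice behind each library, their sex and age are not given in the labels. Libraries were made with a droplet-based kit that reads the 3′ ends of transcripts. With 1 library per diet there was no replicate and no test, so every difference is between these 2 libraries, and every interval (95%) covers counting error only.

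In Notch signalling, a ligand such as Jag1 on one cell binds a receptor on its neighbour. The receptor is then cut by ADAM proteases and by gamma-secretase, and the freed intracellular domain enters the nucleus, where it joins the DNA-binding protein RBPJ and Mastermind coactivators. Genes of the Hes and Hey families, which encode transcriptional repressors, are the best known direct targets, and Nrarp is a target whose product restrains the pathway. Notch3 is known for its role in the mural cells of vessels, the smooth muscle cells and pericytes, where Jag1, Hey2 and Heyl are also expressed. Hes1 is regulated by other pathways besides Notch, so its level alone is not a readout of receptor cleavage.

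After cells with fewer than 500 detected genes or more than 10% mitochondrial counts were left out, 6089 HFD and 8140 NC cells remained, with a median of 10045 and 7524 counts per cell. The deposited annotation gives 5 classes. Fibroblasts named Asc1, Gas6 or Pi16 and myofibroblasts are pooled below as fibroblasts (5493 HFD and 7890 NC cells), and the fifth class is labelled pericytes. This class (596 HFD and 250 NC cells) was rich in the smooth muscle gene Acta2, at 12769 CPM (summed counts scaled to 1 fixed total) in HFD and 12126 CPM in NC. The 8 listed pericyte genes had mixed levels in it. Rgs5 was at 122.7 CPM in HFD and 46.5 CPM in NC and Cspg4 at 134 and 99.8 CPM, all far above the pooled fibroblasts (at most 5.51 CPM), whereas Higd1b was at 3.86 CPM in HFD and 2.04 CPM in NC and Kcnj8 at 16.1 and 25.2 CPM, below the fibroblasts. The list summed to 475 CPM in HFD and 333 CPM in NC there, below myofibroblasts, at 646 and 636 CPM. In Asc1, Gas6 and Pi16 fibroblasts it summed to between 44.1 and 384 CPM in HFD and between 64.7 and 319 CPM in NC. The 7 listed smooth muscle genes summed to 28671 and 28042 CPM in the class labelled pericytes, so it is called by its label here. In the pooled fibroblasts the 6 listed endothelial markers summed to 2.23 CPM in HFD (3 of 6 at 0, Pecam1 among them) and 2.84 CPM in NC (1 of 6 at 0). Pecam1, the epithelial gene Epcam and the immune gene Ptprc had no count in any class of either library. A level of 0 for these genes therefore does not set any class apart. Summed immediate early genes, which respond to tissue handling, were at 29589 CPM in HFD and 27748 CPM in NC. The libraries shared 17 cell barcodes.

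Hes1 differed most between the diets of the 7 genes that could be measured in the fibroblasts. It stood at 239.5 CPM in HFD fibroblasts (231 to 248) and 117 CPM in NC fibroblasts (112 to 123). The HFD over NC ratio was 2.04 (1.93 to 2.16), which placed it 97th from the top among 13422 measured genes. A gene is called measured where its effective counts in the 2 libraries summed to at least 50. Effective counts are counts divided by a number that allows for the several counts which a rare transcript gave in each cell that held it (4.85 in HFD and 3.98 in NC). Computed from Hes1 itself in pooled fibroblasts this divisor was larger, at 11.8 in HFD and 6.12 in NC, and the level was then 226 to 254 CPM in HFD and 111 to 124 CPM in NC. Whether the deposited counts are molecules or reads is not given in the sources used here, so counts per cell and thinned shares below may count repeat reads of 1 molecule. Intervals with the divisor of the gene are named below where they change what is said. A ratio of at least 1.5, or of at most its inverse, is called higher or lower by size below. In pooled fibroblasts 5.45% of measured genes were higher by size in HFD and 4.75% lower.

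Both the share of Hes1-positive cells and the counts of each such cell were higher in HFD. Hes1 had a count in 47.6% of HFD fibroblasts (2613 cells) and 31.1% of NC fibroblasts (2450 cells). Positive cells held a mean of 5.30 Hes1 counts in HFD and 3.14 in NC, at median depths of 9541 and 7402 counts over all fibroblasts of each library. Counts per positive cell were higher in HFD for other genes too. Genes found in 0.1 to 1% of kept cells had a median of 3.25 in HFD and 2.66 in NC. Notch1, with a ratio of 0.997, had 3.56 and 3.06 in pooled fibroblasts. The part of this shift in the Hes1 counts per cell was not tested. Thinned to 4000 counts per cell, with 5200 HFD and 6889 NC cells deep enough, the shares were 35.6% in HFD (34.3 to 36.9%) and 22.9% in NC (21.9 to 23.9%). None of the 5 classes is known to lack Hes1, so no background share could be set beside these. Of all Hes1 counts, the 10 richest cells held 3.42% in HFD and 2.71% in NC.

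Across the classes Hes1 was highest in Asc1 fibroblasts in both libraries. Asc1 fibroblasts, the most numerous class, had 337 CPM in HFD and 164 CPM in NC. Gas6 fibroblasts had 169 CPM in HFD and 89.4 CPM in NC. These values put the Asc1 class apart from the next class in each library, with intervals that did not overlap. Pi16 fibroblasts, which carry adventitial genes, had 150 CPM in HFD and 86.1 CPM in NC. Myofibroblasts had 111 CPM in HFD and 76.7 CPM in NC. The class labelled pericytes had 125 CPM in HFD and 89.3 CPM in NC. Below the Asc1 class, neighbours in the order had overlapping intervals in both libraries. In HFD the Gas6 class (157 to 183 CPM) was apart from the class labelled pericytes (112 to 139 CPM) and from myofibroblasts (87.9 to 137.5 CPM), while in NC the intervals of all 4 classes overlapped. The level in Asc1 fibroblasts over that of the other 4 classes together was 2.28 (2.12 to 2.45) in HFD and 1.87 (1.71 to 2.04) in NC. The classes come from clustering of these same cells, so these ratios describe and do not test.

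The HFD over NC ratio of Hes1 was above 1 in each of the 5 classes. It was 2.05 in Asc1 fibroblasts (1.90 to 2.22), 1.90 in Gas6 fibroblasts (1.70 to 2.12) and 1.74 in Pi16 fibroblasts (1.44 to 2.10). In myofibroblasts it was 1.44 (1.03 to 2.03), and in the class labelled pericytes 1.40 (1.11 to 1.77), both short of the size threshold. With the divisor of the gene, the interval of the log2 ratio in myofibroblasts held 0 (-0.11 to 1.17). The classes share the same 2 libraries, so their common direction is not independent support. Within the Asc1 class, a subset that a finer column names SNAT2 had 307 CPM in its 245 HFD cells and 131 CPM in its 359 NC cells, a ratio of 2.36 (1.57 to 3.59). Without the subset the class had a ratio of 2.04 (1.89 to 2.21). After thinning, Hes1 was detected in 43.0% of HFD and 28.2% of NC Asc1 fibroblasts, and in 16.9% of HFD and 11.6% of NC myofibroblasts, the highest and lowest shares among the classes.

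**Figure D1:**
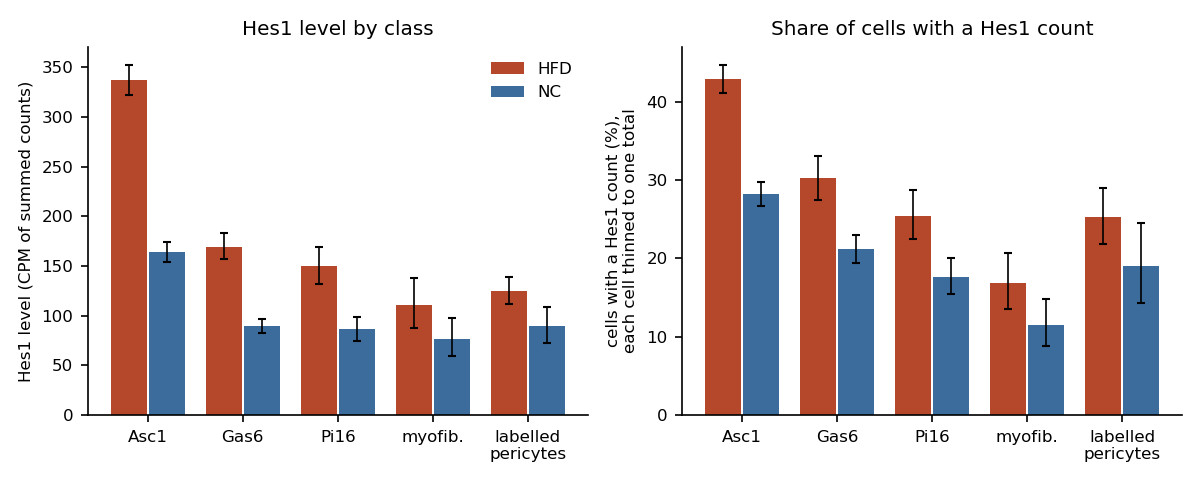
Level of Hes1 in CPM of summed counts (left) and share of cells with a Hes1 count after each cell was thinned to 4000 counts (right), for HFD and NC in each class; error bars are 95% counting intervals. Asc1 fibroblasts stood highest in both libraries, at 337 CPM in HFD and 164 CPM in NC, and HFD was above NC in all 5 classes.

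Of the receptors, Notch1 stood at nearly the same level on both diets. In the pooled fibroblasts it had 30.2 CPM in HFD and 30.3 CPM in NC, a ratio of 0.997 (0.868 to 1.14). It was highest in Asc1 fibroblasts, at 36.9 CPM in HFD and 37.9 CPM in NC, with a ratio of 0.975 (0.804 to 1.18). In Pi16 fibroblasts it had 15.8 CPM in HFD and 22.8 CPM in NC, with an interval of the ratio that held 1 (0.422 to 1.12). The Asc1 class thus had a Hes1 ratio above 2 beside a Notch1 ratio whose interval ended at 1.18.

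Notch2 was spread evenly over the fibroblast classes in HFD, between 59.7 and 66.3 CPM, and less evenly in NC. In the pooled fibroblasts it had 61.9 CPM in HFD and 52.1 CPM in NC, a ratio of 1.19 (1.08 to 1.31). In Asc1 fibroblasts the levels were 61.6 CPM in HFD and 61.5 CPM in NC, a ratio of 1.001 (0.863 to 1.16). In Gas6 fibroblasts they were 60.8 CPM in HFD and 46.8 CPM in NC, a ratio of 1.30 (1.09 to 1.54). Pi16 fibroblasts had 66.3 CPM in HFD and 46.3 CPM in NC, a ratio of 1.43 (1.09 to 1.88). Myofibroblasts had 59.7 CPM in HFD and 38.9 CPM in NC, and their ratio of 1.53 (0.953 to 2.49) passed the size threshold with an interval that held 1. With a stricter filter on cells (1000 detected genes or more, 5% mitochondrial counts or less) the log2 ratio in myofibroblasts was 0.45, below the threshold. By size, Hes1 differed most and Notch2 least in Asc1 fibroblasts. Differences between classes were not tested.

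Notch3 was concentrated in the class labelled pericytes. It had 126 CPM there in HFD (113 to 140) and 87.3 CPM in NC (70.8 to 107), against 3.69 CPM in HFD fibroblasts and 3.69 CPM in NC fibroblasts. Within the class the HFD over NC ratio was 1.44 (1.15 to 1.83). A Notch3 count was found in 40.9% of HFD and 33.2% of NC cells of the class, at median depths of 19714.5 and 15459.5 counts. In Asc1 fibroblasts, at 8472.5 and 6340 counts, the share was 0.356% in HFD and 0.600% in NC. After thinning, the shares in the class labelled pericytes were 25.1% in HFD and 21.1% in NC.

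Jag1 was highest in the class labelled pericytes and in Pi16 fibroblasts. The class labelled pericytes had 34.0 CPM in HFD and 22.9 CPM in NC, a ratio of 1.49 (0.949 to 2.41). Pi16 fibroblasts had 21.2 CPM in HFD and 16.4 CPM in NC, a ratio of 1.29 (0.801 to 2.08). Asc1 fibroblasts had 3.30 CPM in HFD and 1.53 CPM in NC, and Gas6 fibroblasts 4.33 CPM in HFD and 3.64 CPM in NC. Myofibroblasts had 14.6 CPM in HFD (7.23 to 26.4) and 2.68 CPM in NC (0.388 to 9.04). These came from 18 and 5 cells with a count, too few to be called measured. In HFD their interval overlapped that of Pi16 fibroblasts (14.9 to 29.2 CPM). Over the pooled fibroblasts the ratio was 1.51 (1.09 to 2.09), from 125 HFD and 112 NC cells with a count. On the log2 scale it was 0.59, just past the size threshold of 0.58, and it was 0.54 with the stricter cell filter, 0.57 with median of ratios scaling and 0.88 after thinning.

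Heyl and Hey2, of the Hey family, had counts in every class of both libraries. For Heyl, the class labelled pericytes had 117 CPM in HFD (105 to 131) and 57.4 CPM in NC (44.1 to 73.3), a ratio of 2.04 (1.55 to 2.72). In the pooled fibroblasts Heyl had 35.7 CPM in HFD and 31.6 CPM in NC, a ratio of 1.13 (0.990 to 1.29). Its levels in Asc1, Gas6 and Pi16 fibroblasts lay between 31.8 and 44.1 CPM in HFD and between 29.0 and 37.8 CPM in NC, and myofibroblasts were lowest in both libraries. Hey2 was likewise highest in the class labelled pericytes, with 52.9 CPM in HFD and 25.4 CPM in NC, a ratio of 2.08 (1.38 to 3.24). The level in the class was 27.6 times that of the other 4 classes together in HFD and 19.6 times in NC. Some mural genes of the class differed too between the diets, in both directions. Of the pericyte list Rgs5 had a ratio of 2.64, Ndufa4l2 2.49, Pdgfrb 1.38 and Cspg4 1.34, while Kcnj8 and Cox4i2 were lower in HFD. Of the smooth muscle list Cnn1 had 0.742 and Actg2 0.704, while the 7 genes summed to 28671 CPM in HFD and 28042 in NC. Myh11 and Acta2 of that list stood higher in HFD, in the cells of the class that lacked a count of Higd1b or of Cox4i2. There Myh11 had 2881 CPM in HFD and 2384 CPM in NC, and Acta2 12775 and 12203 CPM. Tagln, Lmod1 and Des are not given here. The part of these genes in the Heyl and Hey2 ratios was not tested. In that class the 10 richest cells held 12.98% of Heyl counts in HFD and 41.5% in NC, and for Hey2 18.9% in HFD and 47.3% in NC. The NC levels of both genes in its 250 cells therefore rest on few cells. Without the 10 richest cells of each library, a larger share of the 250 NC cells than of the 596 HFD cells, the log2 ratios were 1.57 for Heyl and 1.65 for Hey2, against 1.03 and 1.06 with them, and that of Jag1 in the class was 1.62, against 0.57.

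Upstream sequence is shown for the 3 genes that stood highest in the class labelled pericytes and have an entry in the promoter table of RefSeq (build GRCm38.p6), which held 6 of the 9 genes. Each run is 260 bases, from 250 before the annotated start to 10 after it, 5′ to 3′ on the strand of the gene. Capitals mark letters that match a motif searched on both strands. The motifs were GTGGGAA, which RBPJ binds, with its inner core TGGGAA, and 3 known from binding of the Hes and Hey repressors, CACNAG (N box), CACGCG (class C site) and CACGTG (E box).
Hey2 (minus strand, chr10:30842774-30843033): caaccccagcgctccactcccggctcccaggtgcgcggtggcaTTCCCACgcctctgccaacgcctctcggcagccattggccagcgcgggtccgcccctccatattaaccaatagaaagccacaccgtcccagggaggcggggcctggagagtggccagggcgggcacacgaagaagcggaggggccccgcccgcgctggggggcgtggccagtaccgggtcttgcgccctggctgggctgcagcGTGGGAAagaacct
Notch3 (minus strand, chr17:32166881-32167140): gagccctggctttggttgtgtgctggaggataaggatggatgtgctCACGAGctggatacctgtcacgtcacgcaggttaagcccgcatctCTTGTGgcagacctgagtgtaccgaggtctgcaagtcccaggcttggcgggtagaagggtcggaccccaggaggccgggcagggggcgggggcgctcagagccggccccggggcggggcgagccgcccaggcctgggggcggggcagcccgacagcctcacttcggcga
Jag1 (minus strand, chr2:137116511-137116770): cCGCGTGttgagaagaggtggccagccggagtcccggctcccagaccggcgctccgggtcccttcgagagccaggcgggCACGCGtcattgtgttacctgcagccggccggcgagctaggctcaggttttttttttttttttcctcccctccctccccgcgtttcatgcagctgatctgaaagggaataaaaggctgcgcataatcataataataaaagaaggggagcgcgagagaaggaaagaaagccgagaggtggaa

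Hey2 had the RBPJ letters 2 times, once on each strand, the one beginning 207 bases before the start and the other spanning it. Of 32851 promoter windows of the same length, 5.58% held GTGGGAA at least once and 0.186% at least 2 times. Notch3 had 2 N boxes, as did 8.74% of windows, and Jag1 had 2 class C sites, as did 1.34%. The windows of Notch1, Notch2, Notch3, Jag1 and Nrarp held neither GTGGGAA nor its core, which was in 22.4% of windows. Of the 6 windows, that of Nrarp alone held an E box, as did 6.34% of all windows. A match is a description of these letters and says nothing of binding in these cells.

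Hey1 was near the detection limit, with a count in 57 HFD and 50 NC fibroblasts. It had 2.94 CPM in HFD and 1.95 CPM in NC, and the ratio of 1.51 had an interval that held 1 (0.906 to 2.51). On the log2 scale it was 0.59, and it was 0.21 with the 4 fibroblast classes weighted equally. Nrarp had a count in 20 of 6089 HFD cells and 20 of 8140 NC cells, too few to compare the diets in any class. In Asc1 fibroblasts it had a count in 0 of 3092 HFD cells, which allows a share of cells with a count of up to 0.097% (3 counts of the total), and in 2 of 3999 NC cells. Of the 7 genes measured in pooled fibroblasts, 3 were higher by size in HFD and 0 lower (Hes1, Hey1 and Jag1), beside the 5.45% and 4.75% of all genes. Hes1 alone was so with no cell filter, with median of ratios scaling or without the 10 richest cells of each gene. The median log2 ratio of the 7 was 0.25, against 0.025 over all measured genes. Since the genes were chosen with the Hes1 ratio known, this count is a description.

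Counted over the 5 classes one by one, the genes gave 22 measured values, of which 6 were higher by size in HFD and 0 lower. The 6 were Hes1 in Asc1 fibroblasts (where 4.88% of all genes were higher by size), in Gas6 fibroblasts (6.08%) and in Pi16 fibroblasts (5.7%), Notch2 in myofibroblasts (7.62%), and Heyl and Hey2 in the class labelled pericytes (11.4%). In that class the median log2 ratio of all genes was 0.083, and that of the 7 measured Notch genes 0.53. With the 10 cells richest in each gene left out of each library, 12 of the values were higher by size. In the class labelled pericytes those 10 cells are a larger share of the 250 NC than of the 596 HFD cells.

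The pool of cells mattered for the mural genes. When all 5 classes were summed, the HFD over NC ratio was 2.95 (2.44 to 3.57) for Notch3, 4.05 (2.94 to 5.69) for Hey2, 2.08 (1.62 to 2.69) for Jag1 and 1.53 (1.37 to 1.71) for Heyl. Within the class labelled pericytes these were 1.44, 2.08, 1.49 and 2.04. That class held 596 of 6089 HFD cells and 250 of 8140 NC cells, so sums over all cells carry its share as well as its levels. For Hes1 the sum over all classes gave 1.89 (1.79 to 1.997), and the 4 fibroblast classes weighted equally gave a log2 ratio of 0.88, against 1.03 in the pool.

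**Figure D2:**
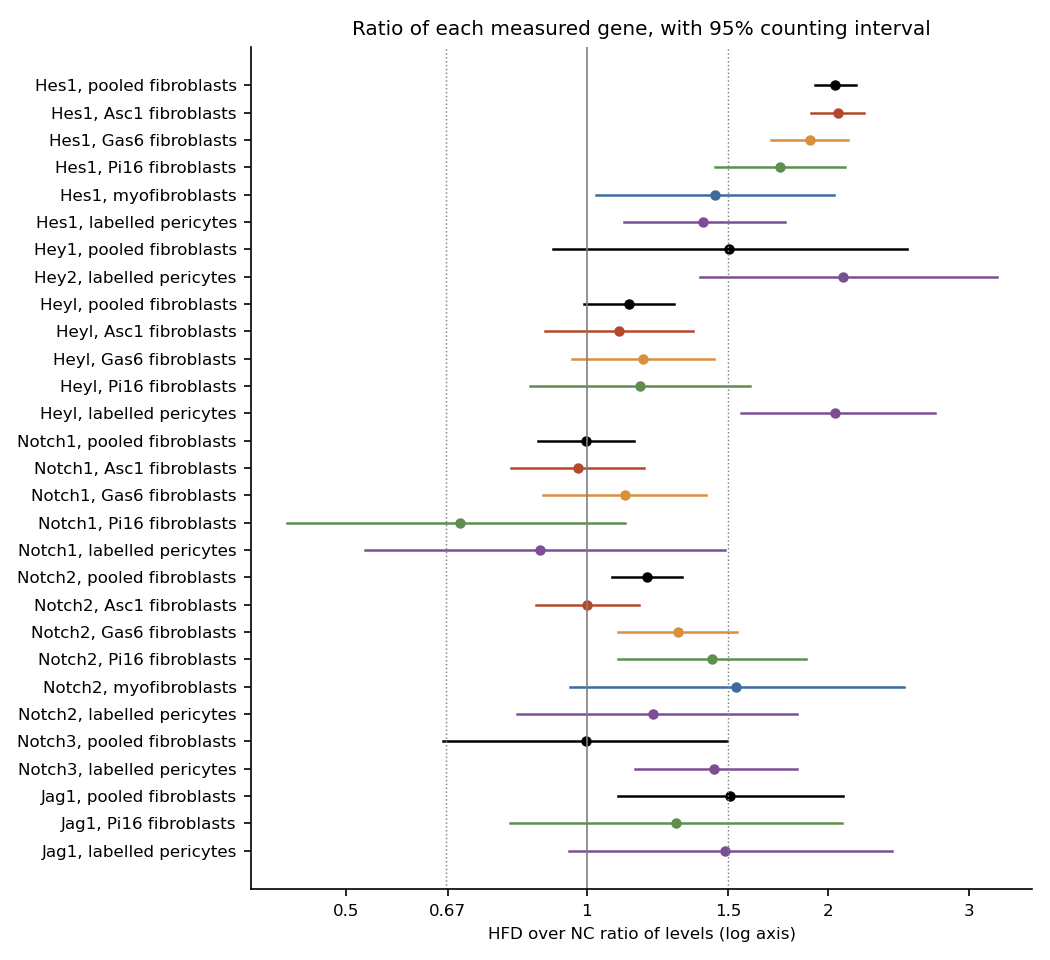
HFD over NC ratio of the level of each measured gene in the pooled fibroblasts and in each class, on a log axis; lines are 95% counting intervals, the solid line marks 1 and dotted lines the size threshold of 1.5 in either direction. Hes1 lay between 1.40 and 2.05 in all 5 classes, while Notch1 lay between 0.694 and 1.11.

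Whether Hes1 was higher in cells with a receptor transcript was also looked at, class by class. In Asc1 fibroblasts of the HFD library, Hes1 had 357 CPM in the 276 cells with a Notch1 count and 335 CPM in the 2816 without. In the NC library it had 172 CPM in the 318 cells with a Notch1 count and 163 CPM in the 3681 without. For Notch2 the levels with and without a count were 314 and 343 CPM in HFD, and 167 and 163 CPM in NC. All 4 pairs of intervals overlapped, as they did for Notch2 in Gas6 and Pi16 fibroblasts. Of all HFD fibroblasts, 32.6% had a Hes1 count and none of Notch1, Notch2 or Notch3, as did 22.7% of NC fibroblasts. Notch3 in myofibroblasts differed from these. The 17 HFD cells with a Notch3 count had 913 CPM of Hes1 (567 to 1393) and the 493 without had 84.3 CPM (64.3 to 109). The 20 NC cells with a count had 819 CPM (496 to 1274.5) and the 647 without had 55.3 CPM (40.4 to 74.0). The intervals lay apart in both libraries, and 15 of the 17 HFD and 11 of the 20 NC cells were among those with both Higd1b and Cox4i2 described below. At this depth a cell without a count cannot be taken as a cell without the receptor. Between the effectors, Hes1 in Asc1 fibroblasts of HFD had 442 CPM in the 202 cells with a Heyl count (379 to 514) and 329 CPM in the 2890 without (313 to 345). With the divisor of the gene these intervals overlapped, at 332 to 577 and 305 to 354.5 CPM. In NC it had 171 CPM in 262 cells with and 164 CPM in 3737 cells without. The same split in Gas6 and Pi16 fibroblasts gave overlapping intervals in both libraries.

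In the class labelled pericytes the effectors stood higher in cells with a Notch3 count. In HFD, the 244 cells with Notch3 had 153 CPM of Hes1, 144 CPM of Heyl and 69.6 CPM of Hey2. The 352 HFD cells without it had 101, 94.7 and 38.9 CPM of the same genes. All 3 pairs of intervals lay apart, for Hes1 at 132 to 177 CPM with and 85.2 to 118 CPM without Notch3. With the divisor of each gene the intervals of Hey2 were still apart (52.8 to 90.0 and 28.4 to 52.1 CPM), those of Hes1 just so (122.99 and 122.2 CPM at the near ends), and those of Heyl overlapped (113.9 and 118.2 CPM). In NC, the 83 cells with Notch3 had 108 CPM of Hes1, 83.2 CPM of Heyl and 44.0 CPM of Hey2. The 167 NC cells without it had 77.7, 41.4 and 13.9 CPM. There the order was the same, with overlapping intervals for Hes1 (79.1 to 144 and 58.2 to 102 CPM) and Heyl and separate ones for Hey2. The Hey2 intervals overlapped with the divisor of the gene, at near ends of 25.5 and 25.98 CPM. Cells with a Notch3 count were also deeper, with medians of 22494 against 18763 counts in HFD and 17774 against 14349 in NC, and the part of depth in this was not tested. Other markers moved with the split. Rgs5 was at 49.9 CPM with and 184 CPM without Notch3 in HFD, and at 35.7 and 53.1 CPM in NC. Ndufa4l2 was at 40.2 and 11.9 CPM in HFD and 21.4 and 2.93 CPM in NC. The 6 endothelial markers summed to 49.9 and 33.5 CPM in HFD and 53.5 and 27.9 CPM in NC. Over the whole class, Esam alone gave 38.96 of 41.0 CPM of that endothelial sum in HFD and 34.0 of 37.6 CPM in NC. Pecam1 was at 0 in both libraries. The summed pericyte list was at 452 and 494 CPM in HFD and 326 and 338 CPM in NC, and the part of the mix of cells in this was not tested. By Notch2 count, Hes1 in the class had overlapping intervals in both libraries, at 134 and 121 CPM with and without in HFD and 104 and 83.6 CPM in NC.

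Notch3 and Nrarp had a count in few cells outside the class labelled pericytes, 53 and 10 in HFD and 68 and 17 in NC. Cells with a count of both pericyte genes Higd1b and Cox4i2, a rule chosen after the values were seen, numbered 26 in HFD and 23 in NC outside that class. Of these, 18 in HFD and 14 in NC were annotated as myofibroblasts. They had 437 CPM of Notch3 in HFD (286 to 639) and 652 CPM in NC (404 to 995), and a Notch3 count in 22 of 26 and 18 of 23 cells. They made up 0.427% of kept HFD and 0.283% of kept NC cells. They held 128 of the 213 Notch3 counts outside the class in HFD, but 84 of 242 in NC, where most lay in other cells. For Nrarp it was 25 of 31 in HFD and 25 of 54 in NC. Of all Nrarp counts in kept cells, the class included, this was 33.8% in HFD and 39.1% in NC. Hes1 was at 546 CPM in HFD and 465 CPM in NC in these cells. Acta2, by contrast, was at 143 CPM in HFD and 38.8 CPM in NC. Without them, myofibroblasts had 3.799 CPM of Notch3 in HFD and 13.9 CPM in NC, against 28.7 and 26.8 CPM with them. Over the pooled fibroblasts without them the log2 ratio of Notch3 was -0.71, against -0.0029 with them. Hes1 in the remaining myofibroblasts was 78.6 CPM in HFD and 61.8 CPM in NC.

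**Figure D3:**
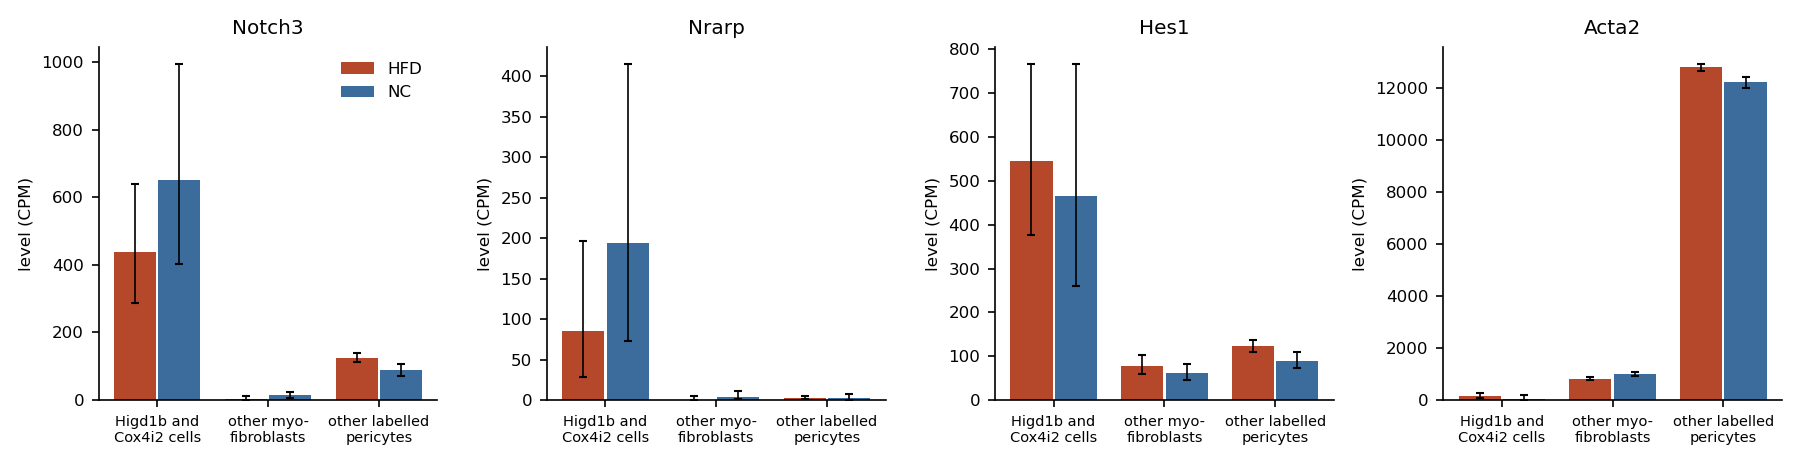
Level in CPM of Notch3, Nrarp, Hes1 and the smooth muscle gene Acta2 in HFD and NC, for cells outside the class labelled pericytes with a count of Higd1b and Cox4i2, for the other myofibroblasts and for the other cells of the class labelled pericytes; error bars are 95% counting intervals and vertical scales differ. The cells with both genes had 437 CPM of Notch3 in HFD and 652 CPM in NC, with Acta2 at 143 and 38.8 CPM.

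The rest of the pathway was described with a list of 65 genes by role, of which 59 were matched in the tables and 48 measured in pooled fibroblasts. None was higher by size in HFD and 2 were lower (Myc and Ccnd1), beside 5.45% and 4.75% of all genes. The median log2 ratio of the 48 was 0.051, against 0.025 for all genes. Dll4, Dlk1, Dlk2, Hes2, Hes3 and Hes5 were not analysed here.

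Among the ligands, Dll1 and Jag2 had a count in 4 and 1 HFD fibroblasts and in 7 and 6 NC fibroblasts. Dner, an atypical ligand, was the only measured one, at 6.83 CPM in HFD and 4.97 CPM in NC. Notch4, a receptor best known from endothelium, had a count in 5 HFD and 13 NC fibroblasts. Dll1, Jag2 and Notch4 were thus at the detection limit in the fibroblasts of both libraries.

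Proteases that cut the receptor differed little. Adam10, which makes the outer cut, had 28.8 CPM in HFD and 26.8 CPM in NC, a ratio of 1.07 (0.930 to 1.24). All 10 cleavage genes were measured, with a median log2 ratio of 0.14. Rbpj, the DNA-binding partner of the receptor domain, had 42.2 CPM in HFD and 40.9 CPM in NC, a ratio of 1.03 (0.918 to 1.16). The 8 genes of the nuclear complex had a median log2 ratio of 0.045, and the 11 corepressors one of -0.012. Hes6, a Hes family member that is known to oppose Hes1, had 9.85 CPM in HFD and 7.81 CPM in NC, a ratio of 1.26 (0.973 to 1.63).

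The genes that were lower by size are shared targets, which Notch and many other pathways can induce. Myc, a growth regulator, had 25.2 CPM in HFD and 42.0 CPM in NC, a ratio of 0.599 (0.522 to 0.687). It was lower by size in Asc1 fibroblasts (ratio 0.503), Gas6 fibroblasts (0.448), Pi16 fibroblasts (0.618) and the class labelled pericytes (0.397), where 5.46%, 5.91%, 5.88% and 6.77% of all genes were lower. Ccnd1, a G1 cyclin, had 4.91 CPM in HFD and 7.42 CPM in NC, a ratio of 0.663 (0.477 to 0.912). With the 4 fibroblast classes weighted equally neither was past the threshold, at ratios of 0.77 for Myc and 0.80003 for Ccnd1. The same held without the Asc1 class, at 0.675 for Myc and 0.763 for Ccnd1. Ccnd1 was also short of it with the stricter cell filter (0.676), with totals lacking mitochondrial and ribosomal protein genes (0.671) and with no cell filter (0.66677, just inside). So Hes1 was higher and Myc lower by size in HFD in the same 3 fibroblast classes, and neither was past the threshold in myofibroblasts.

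Single classes gave a few more values past the size threshold. With Myc counted, 0 of 45 genes of the list were higher and 3 lower in Asc1 fibroblasts, beside 4.88% and 5.46% of all genes. It was 2 and 2 of 45 in Gas6 fibroblasts (6.08% and 5.91%) and 2 and 1 of 42 in Pi16 fibroblasts (5.7% and 5.88%). It was 2 and 1 of 28 in myofibroblasts (7.62% and 7.94%) and 3 and 1 of 36 in the class labelled pericytes (11.4% and 6.77%). The counts were near or below these shares. In Asc1 fibroblasts, where 45 genes of the list were measured, Numbl, a relative of the Notch inhibitor Numb, had a ratio of 0.662 (0.545 to 0.801), and Dtx2, a Deltex ubiquitin ligase, 0.519 (0.307 to 0.854). In Gas6 fibroblasts Hes6 had 1.93 (1.14 to 3.29), Aph1c, a gamma-secretase subunit, 1.55 (1.09 to 2.21), and Ccnd1 0.531 (0.296 to 0.910). In Pi16 fibroblasts the Mastermind coactivators Maml2 and Maml3 had 1.70 (1.004 to 2.90) and 1.56 (0.878 to 2.79). In myofibroblasts Ep300, an acetyltransferase coactivator, had 1.51 and Dtx3 1.61, and Id1 was at 0.660, where 7.94% of all genes were lower by size. All 3 intervals in myofibroblasts held 1. In the class labelled pericytes Adam17, a protease of the outer cut, had 2.32 (1.13 to 5.34), Mib2, a ubiquitin ligase that activates ligands, 1.60 (0.869 to 3.15), and the corepressor Ctbp2 1.63 (0.862 to 3.34).

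**Figure D4:**
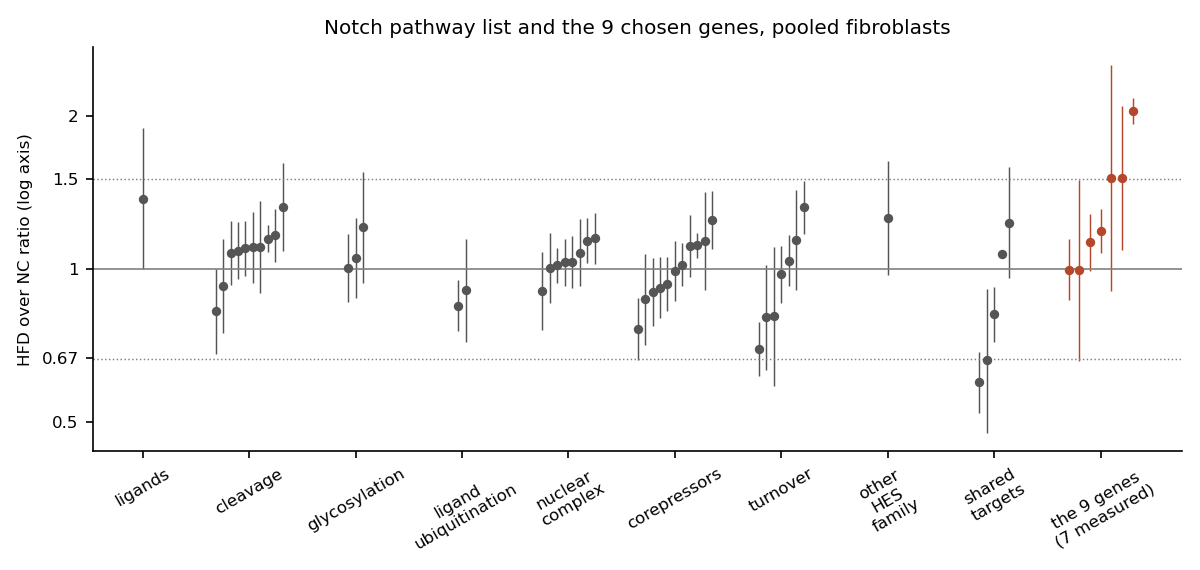
HFD over NC ratio in pooled fibroblasts for the 48 measured genes of the pathway list by role (grey) and for the 7 measured genes of the 9 described here (red), on a log axis; bars are 95% counting intervals and dotted lines the size threshold of 1.5 in either direction. Hes1 stood at 2.04, above every gene of the list, and Myc at 0.599 was lowest.

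Genes with a pattern like Hes1 were sought over the 10 points made by 5 classes and 2 libraries, by Pearson's r of log2 CPM. Among 5267 genes with enough counts in each point, the highest r was that of C1qtnf2, which encodes a secreted protein of the C1q and TNF-related family, at 0.936. C1qtnf2 had 141 CPM in HFD and 93.3 CPM in NC Asc1 fibroblasts, and 54.9 CPM in HFD and 26.5 CPM in NC myofibroblasts. The next were Zfp637, Zfp971, Ndufb4, Mrps26, Vps25, Ndufb4c and Eif4ebp2, with r from 0.936 to 0.906. Values of Ndufb4 and Ndufb4c, near-identical copies that can share reads, are uncertain. The points share 2 libraries, so r describes likeness over these points. By Spearman's rho, 3 of the 8 were still among the first 8, and C1qtnf2 was again first. With at least 30 effective counts in each point, C1qtnf2 and 4 others of the 8 were too low to enter, and the 3 that remained were Ndufb4, Vps25 and Ndufb4c.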

How the data were processed

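The authors deposited a table per library with 1 row per cell. The deposited gene values are log2 of CPM plus 1, as worked out from the values themselves, beside an estimated count total per cell (a non-integer in 7.24% of cells of HFD and 5.59% of NC) and the percent of mitochondrial counts that the authors computed. STAR and mm39 are named in the submitters' processing notes, and their versions are not given in the sources used here. Counts were recovered from log2 value and total and rounded, and 98.8% of HFD and 98.96% of NC values were whole within 0.01. Symbols were matched for 20180 of 21014 identifiers (96.03%). An earlier block of HFD columns, whose totals ranked differently (Spearman 0.0494), was not used, no doublet caller was run, and classes are the deposited annotation.

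For each class of a library, summed counts of a gene were divided by the summed total. Intervals are exact Poisson for levels, exact conditional for ratios (both on effective counts) and Clopper-Pearson for shares, at 95%. The divisor of effective counts is a library's median, over genes found in 0.1 to 1% of cells, of summed squared counts over summed counts. No gene count model was fitted, and intervals were tested on simulated data drawn with the same library divisors. That does not show how they hold for genes with a larger divisor, such as Hes1. The 9 genes, lists and rules were chosen with earlier results of these data known. Named from the list were genes past a ratio of 1.5 with at least 50 effective counts, Rbpj, Adam10, Dll1, Dll4, Jag2, Notch4 and Hes6, and the 8 genes most like Hes1. 1 gene that the rule names is not reported here. Python 3.11.15, numpy 2.4.6, scipy 1.17.1, pandas 2.3.3 and matplotlib 3.10.9 were used. Alternatives changed the cell filter, scaling, weights, depth, single cells, intervals and thresholds.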

Additional observations from a re-analysis of the deposited data

Results flagged for a closer look

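Cells left out by the filter on genes and mitochondrial counts carried a Hes1 signal that enters no comparison above, except those made with no cell filter. Hes1 was at 160.5 CPM in the 882 such HFD cells and at 112 CPM in the 875 such NC cells. An older label column of the NC table, which the classes above do not use, names 24 kept cells PDGFRb hi fibroblasts, of which 18 were annotated as myofibroblasts. In these cells Notch3 was at 965 CPM and Nrarp at 285 CPM.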

How the results depend on the processing

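No paired analysis was possible because each diet has 1 library, and for the same reason no library could be left out. Of 311 values that 29 log2 ratios took under alternatives, 300 lay within the interval of the value reported, 11 lay outside it and 0 of the ratios past the size threshold changed direction. Alternatives that changed only the divisor of effective counts left each ratio as it was and could not fall outside. The 300 include them. The log2 ratio of Hes1 in pooled fibroblasts was 1.03, and 0.88 with classes weighted equally, 0.85 without the Asc1 class and 0.92 over all 5 classes. The count of genes higher by size there was 3, and 1 with no cell filter, with median of ratios scaling or without the 10 richest cells of each gene, and 6 over all 5 classes. Over single classes it was 6, and 12 without those cells, which are a larger share of NC than of HFD cells in the class labelled pericytes. The pathway list gave 2 genes past the threshold, 1 with no cell filter or with totals lacking mitochondrial and ribosomal protein genes (Myc), 1 without the Asc1 class (Dner, higher, and neither of the 2), 2 with the stricter cell filter (Myc and Numbl), 0 with classes weighted equally, and 9 with a lower ratio threshold and 0 with one of 2. Of the 8 genes most like Hes1, 3 were kept by Spearman's rho and 3 with at least 30 effective counts per point, without C1qtnf2. The HFD minus NC difference in the share of Hes1-positive fibroblasts was 16.5 percentage points, and 12.7 after thinning. In the class labelled pericytes, thinning gave Notch2 a log2 ratio of -0.44, against 0.27. The causes were not tested. Hey1 and Jag1 in pooled fibroblasts and Notch2 in myofibroblasts lay close to the size threshold, with lowest log2 ratios of 0.21, 0.54 and 0.45. Thinned shares, intervals with a factor of each gene and sums without the Higd1b and Cox4i2 cells were added after seeing the data. Depth limited Hey1, Nrarp and the other ligands.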
